A study of Rattus norvegicus with 4 samples.

Results

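The insulin-like growth factor (IGF) system was examined in the neonatal rat prefrontal cortex through 10 genes. These were the ligands Igf1 and Igf2, the receptors Igf1r and Igf2r, and the binding proteins Igfbp2, Igfbp3, Igfbp4, Igfbp5, Igfbp6 and Igfbp7. They were found by gene symbol and made up 10 of the 14004 genes with a symbol. The system was chosen by measured values, since ratios of BPA to control in these same libraries were known when it was picked, so the members' ratios are given as a description with no test. Each member was represented by 1 transcript and was listed in all 4 libraries. All 10 members reached a mean FPKM (the deposited expression level, scaled for transcript length and sequencing depth) of 1, Igfbp6 only narrowly.

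IGF1 and IGF2 are secreted peptides that drive growth, survival and differentiation, and both act through the tyrosine kinase receptor IGF1R. IGF2R, which also sorts mannose 6-phosphate tagged enzymes to lysosomes, binds IGF2 and clears it, while the binding proteins carry the ligands and hold them back from or present them to the receptor. In the developing brain Igf2 is known for strong expression in the meninges, vessels and choroid plexus, whereas Igf1r is found widely in neural cells.

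The samples were frontal cortex of Wistar rat pups at postnatal day 1. Their dams had been treated by daily gavage from gestation day 1 until birth. The dams received bisphenol A (BPA) at 5000 µg/kg of body weight, or the vehicle of ethanol in corn oil. BPA is a compound of polycarbonate plastics and epoxy resins with estrogenic activity. Strain and age are given here as in the sample labels, whereas the study's methods name Wistar Furth rats and extend the age by a day. A single library (n = 1) stood for each combination of sex and treatment, and each is called here by its sex and treatment. The study's methods describe several pups from independent litters in each group and do not state whether a library pooled them. Within a sex, 1 library therefore stood against 1 with no replicate check, and a ratio compares those libraries. The depth, estimated from the steps in which the FPKM of scarce transcripts moved, was 9245000 fragments for the control and 9190000 for the BPA library of males, and 8970000 and 8995000 for those of females. Where 4 values follow each other, they stand for the male control, male BPA, female control and female BPA libraries. Intervals are 95% intervals from these estimated fragments and cover counting error only.

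Igfbp2, an abundant IGF carrier of the fetal and newborn brain, led the system in all 4 libraries. In the control libraries its level was 114.5 FPKM in the male and 129.94 FPKM in the female, and Igf2 came next at 61.22 and 61.1 FPKM. Igfbp4, Igfbp5 and Igfbp7 followed at mean control levels of 26.98, 25.55 and 25 FPKM, and the values of neighbours among these genes overlapped between the libraries. Below them stood Igfbp3 with 11 FPKM and Igf2r with 10.09 FPKM, which overlapped as well, then Igf1 with 6.74, Igf1r with 5.67 and Igfbp6 with 1.29 FPKM, each apart from its neighbour. In the BPA libraries the order differed for the ligands and for Igfbp5. Igf2 stood below Igfbp7 and Igfbp4, with a mean of 16.41 FPKM, and Igf1 stood below Igf1r, with 3.235 against 4.66 FPKM. Igfbp5, with 12.97 FPKM, no longer overlapped Igfbp4 and Igfbp7 and stood below Igf2.

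**Figure D1:**
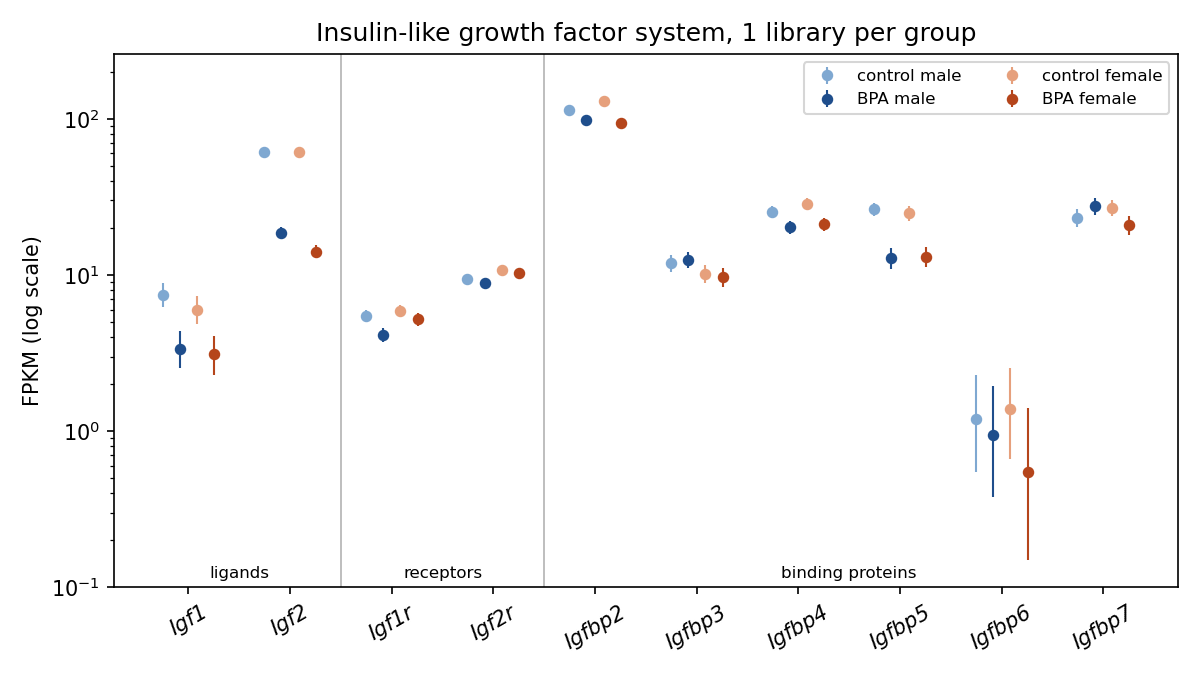
Level of each IGF system gene in FPKM (log axis) in the 4 libraries, 1 point per library, with bars for the 95% counting interval. Igf2 lies at 61.22 and 61.1 FPKM in the control libraries and at 18.69 and 14.13 FPKM in the BPA libraries, while the levels of Igf2r stay between 8.88 and 10.75 FPKM.

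Both ligands were lower in the BPA library than in the control library of each sex. Igf2 measured 61.22 FPKM in control male (interval 58.6 to 64) and 18.69 FPKM in BPA male (17.2 to 20.2). In females it measured 61.1 FPKM in the control library (58.4 to 63.9) and 14.13 FPKM in the BPA library (12.9 to 15.5). The values of the treatments did not overlap, and the control libraries of the sexes lay within counting error of each other. Igf2 was thus 3.28-fold lower with BPA in males and 4.32-fold lower in females, from 2030, 616, 1965 and 456 estimated fragments in the 4 libraries. On the scale of log2(FPKM + 0.5), which is used for all log2 ratios here and understates the change of low genes, the ratio of BPA to control was -1.69 in males and -2.07 in females. These ratios were the 15th lowest of 13492 genes in males and the 14th lowest of 13541 in females.

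Igf1, the ligand that mediates much of the action of growth hormone after birth, was a scarcer message than Igf2, which exceeded it 8.2-fold in the male and 10.2-fold in the female control. It measured 7.47 FPKM in control male and 3.37 FPKM in BPA male. The female libraries gave 6.01 FPKM with vehicle and 3.1 FPKM with BPA. Both BPA libraries were below both controls, with log2 ratios of -1.04 in males and -0.85 in females. The corresponding ratios of BPA to control were 0.454 (0.324 to 0.628) and 0.514 (0.357 to 0.734).

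The receptors differed less between the libraries than the ligands. Igf1r, the signaling receptor, measured 5.49 and 4.11 FPKM in control male and BPA male, and 5.85 and 5.21 FPKM in control female and BPA female. The ratio of BPA to control was 0.749 (0.653 to 0.859) in males and 0.891 (0.783 to 1.01) in females, so that only the male interval lay below 1. Igf2r measured 9.44 and 8.88 FPKM in the male libraries and 10.75 and 10.28 FPKM in the female libraries. Its ratios of 0.94 (0.848 to 1.04) and 0.956 (0.867 to 1.05) were within counting error of no difference in both sexes.

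Among the binding proteins, Igfbp5 had the lowest ratios apart from the scarce Igfbp6 in females when FPKM were divided directly. Igfbp5, a binding protein that also attaches to extracellular matrix, measured 26.32 FPKM in control male and 12.84 FPKM in BPA male. The corresponding female values were 24.78 and 13.11 FPKM. The treatments did not overlap, and the log2 ratios were -1.01 in males and -0.89 in females. Igfbp2 measured 114.5 and 98.15 FPKM in the male libraries and 129.94 and 94.63 FPKM in the female libraries, with log2 ratios of -0.22 and -0.46. Igfbp4, the substrate of the protease encoded by Pappa, measured 25.35 and 20.22 FPKM in males and 28.61 and 21.07 FPKM in females, with log2 ratios of -0.32 and -0.43. For Igfbp2 and Igfbp4 the BPA libraries were below the controls in both sexes, by less than the ligands.

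For Igfbp3, Igfbp6 and Igfbp7 the BPA and control libraries did not differ beyond counting error in males, and in females only those of Igfbp7 did. Igfbp3, the main carrier of the ligands in serum, measured 11.85 and 12.54 FPKM in males and 10.16 and 9.68 FPKM in females, with log2 ratios of 0.08 and -0.07. Igfbp7, which binds IGFs weakly and is known as a vessel wall protein, measured 23.14 and 27.5 FPKM in males and 26.86 and 20.77 FPKM in females. Its ratio was 1.19 (0.991 to 1.42) in males and 0.772 (0.638 to 0.933) in females. Igfbp6, which prefers IGF2, measured 1.2, 0.94, 1.38 and 0.55 FPKM, which rested on 9, 7, 10 and 4 estimated fragments, and a difference was not detectable at this depth.

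Counted by size of the ratio, 3 of the 10 members, Igf1, Igf2 and Igfbp5, had a log2 ratio of -1 or less in males, beside 1.15% of 13492 genes. In females 1 of the 10, Igf2, did so, beside 2.18% of 13541 genes. Since the members were selected on this contrast, nothing is read from these shares. Igf1 and Igfbp5 in males stood just past the threshold, and with a pseudocount of 1 their log2 ratios were -0.95 and -0.98, which left 1 member past it. Median-ratio scaling put Igfbp5 at -0.97. In females a pseudocount of 0.1 brought Igfbp6 past it as well, at -1.19. The median log2 ratio over all genes was -0.04 in males and -0.06 in females.

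**Figure D2:**
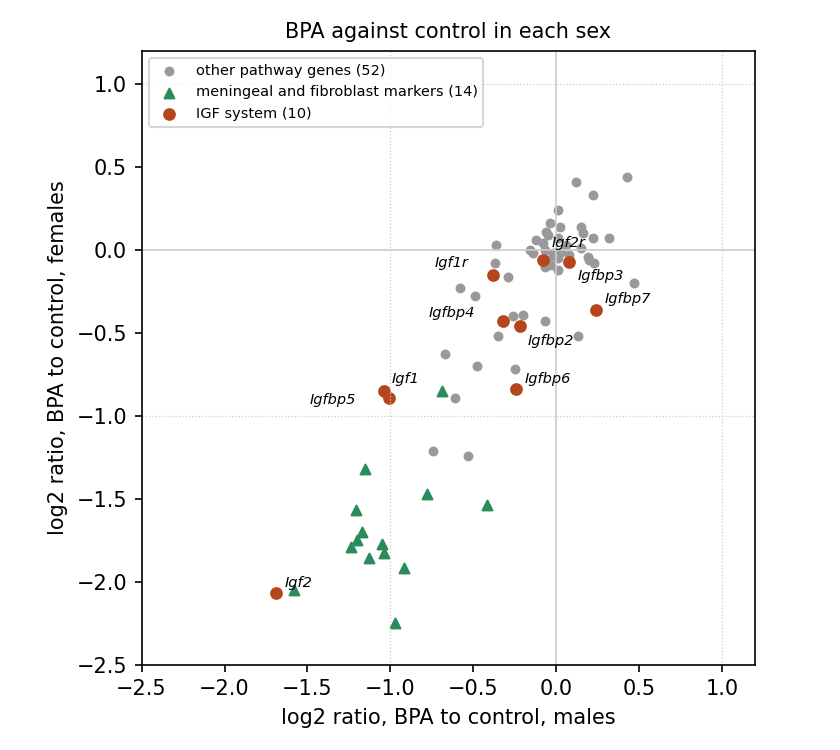
Log2 ratio of BPA to control in males (horizontal) and females (vertical), 1 point per gene, for the 10 IGF system genes, 52 other genes of the pathway and 14 meningeal and fibroblast markers, with dotted lines at -1 and 1. Igf2, at -1.69 and -2.07, lies beside the marker Gjb2, at -1.58 and -2.05, while Igf2r, at -0.08 and -0.06, lies near 0.

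Summed by role, the messages of the ligands came to 68.69 FPKM in control male and 22.06 FPKM in BPA male. In females the ligand sum was 67.11 FPKM with vehicle and 17.23 FPKM with BPA. Igf2 provided 89.1 and 84.7% of the ligand sum in the male and 91 and 82% in the female libraries, controls given before BPA, so the sum mostly followed Igf2. The receptor sum was 14.93, 12.99, 16.6 and 15.49 FPKM in the 4 libraries. The sum of the binding proteins was 202.4, 172.2, 221.7 and 159.8 FPKM, with 56.6 to 59.2% from Igfbp2. The binding protein message therefore exceeded the ligand message 2.95-fold in control male and 7.81-fold in BPA male, and 3.3-fold in control female and 9.28-fold in BPA female. The ratio of ligand to receptor message was 4.6 and 1.7 in males and 4.04 and 1.11 in females. These are ratios of messages, and protein was not analysed here.

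The sexes were compared with limma in a model with treatment and sex, which leaves 1 residual degree of freedom and is the contrast on which the members were not chosen. None of the 10 members passed an adjusted p of 0.05, beside 0.103% of 10629 genes (11 genes). At an unadjusted p under 0.05 there was 1 member, Igfbp3, with a female to male log2 ratio of -0.28 (SE 0.107, limma adjusted p = 0.481), beside 866 of all genes. Igfbp3 was lower in the female library under both treatments. The adjusted p of the members in limma ranged from 0.481 to 0.97. For Igf2 the log2 difference of female from male was -0.39 in the BPA libraries, while the control libraries stood at 61.22 and 61.1 FPKM.

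The ratio of BPA to control was also set side by side for the sexes. For 3 of the 10 members the counting interval of the difference (log2 ratio in males minus that in females, from the estimated fragments) lay above 0, beside 9.15% of 12213 genes with a fragment in every library. It lay below 0 for no member, and wholly above or wholly below 0 for 15.9% of these genes. Nothing is read from these shares, since the members were selected on these ratios. The 3 members were Igf2 with 0.40 (0.20 to 0.60), Igfbp2 with 0.24 (0.07 to 0.40) and Igfbp7 with 0.62 (0.26 to 0.99). With 1 library in each group such an interval holds no spread between animals or litters, and the difference was not tested.

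The other genes of the pathway were followed in 65 genes of 10 lists, of which 59 were listed and 52 reached a mean FPKM of 1 over the 4 libraries. The male and female library of a treatment were taken as its replicates, though the study's methods do not state whether they shared dams. A litter effect common to both sexes cannot be told apart from BPA in this fit. In it, limma called 5 of the 52 at an adjusted p under 0.05, beside 4.49% of 10629 genes. Of these 5, 1 was higher and 4 were lower with BPA, beside 3.79% of all genes called lower. The median log2 ratio of the 52 was -0.02, beside -0.04 over all genes tested. Map2k1, the kinase that activates ERK, fell by 0.65 on the log2 scale (SE 0.0807, limma adjusted p = 0.00255), with 26.9 and 16.78 FPKM in the male and 27.17 and 17.35 FPKM in the female libraries. Shc1, an adaptor that links receptors to RAS, fell by 0.75 (SE 0.175, limma adjusted p = 0.0428). Pik3r2, a regulatory subunit of PI3 kinase, rose by 0.27 (SE 0.0651, limma adjusted p = 0.0452). The remaining calls were imprinted genes. Cdkn1c, a growth-restraining inhibitor of cyclin-dependent kinases, fell by 0.97 (SE 0.13, limma adjusted p = 0.00367), and H19, the noncoding RNA of the imprinted domain that holds Igf2, fell by 0.88 (SE 0.211, limma adjusted p = 0.0462). An absolute log2 ratio of 1 was passed in males by 1 of the 59 listed genes, Stc2 (1.01), beside 1.49% of 13492 genes. In females it was passed by 3 of the 59, Stc2 (-1.03), H19 (-1.24) and Cdkn1c (-1.21), beside 2.43% of 13541 genes. Stc2 rested on 1, 6, 6 and 1 estimated fragments, and its ratios of 6.04 (0.732 to 278) in males and 0.166 (0.00361 to 1.37) in females lay within counting error of no difference. The count depended on single libraries, with 3 calls without control male, 3 without BPA male, 2 without control female and 2 without BPA female, and it was 0 when low genes were kept in the fit (15 of 59 at an unadjusted p under 0.05) and 1 with single transcripts tested. Of the 3 calls without control male, 2 were among the 5 and the other was Mest. Map2k1 and Cdkn1c were called whichever library was left out.

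Most genes downstream of IGF1R gave no call in this fit, but neither did most genes of any kind, since 4.49% of 10629 were called. The lack of calls is therefore no result about the pathway. With a sex term added, limma also called Grb14 at a log2 ratio of -0.38 (adjusted p = 0.0465), Mapk3 at -0.23 (adjusted p = 0.0339) and Mest at -0.30 (adjusted p = 0.0407), which made 8 calls. The counts by list that follow are from the fit without the sex term. In the PI3K-AKT-mTOR list 1 of 18 tested genes was called, and Akt1, its most abundant gene, measured 145.94, 163.54, 139.64 and 149.52 FPKM. In the RAS-MAPK list 1 of 8 was called, with Mapk3 the most abundant at 100.76, 82.15, 92.06 and 82.26 FPKM. Among receptor substrates and adaptors 1 of 9 was called, and the leading gene Grb2 had log2 ratios of 0.06 in males and 0.03 in females. None of 4 genes of the growth hormone axis (Jak2 the most abundant), 3 proteases and their regulators (Ctsd), 1 other IGF binding protein (Igfbpl1), 1 insulin receptor gene (Insr), 1 IGF2 mRNA binding protein (Igf2bp2) and 1 mannose 6-phosphate receptor (M6pr) was called by limma. Of the imprinted genes 2 of 6 were called. Mest, the most abundant in the control libraries but not in the BPA libraries, was not called without the sex term, with log2 ratios of -0.20 and -0.39. Over all pathway lists limma gave 15 of 52 genes at an unadjusted p under 0.05, beside 2244 of 10629 genes. The ratio of Igf2 to H19 was 14.5 and 6.72 in the control and BPA libraries of males and 12.9 and 8.17 in those of females, so that Igf2 was lower with BPA relative to H19 as well.

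Markers of other cell types differed between the same libraries. All 14 markers of meninges and fibroblasts were lower with BPA in both sexes, beside 39.8% of 13029 genes, and none was at the lowest value. limma called 12 of the 14 lower (not Foxc1 and Foxd1), beside 3.79% of all genes. The count was 7 with single transcripts tested and 10 to 13 with a library left out. With low genes kept in the fit limma called 0 of all genes, so that each count of calls given here for a marker list was then 0, while all 14 meningeal markers had an unadjusted p under 0.05. Their summed level was 459.8 and 219.2 FPKM in the control and BPA libraries of males and 611.2 and 149.4 FPKM in those of females, with Ptgds the most abundant at 214.04, 109.08, 320.0 and 66.86 FPKM. The median log2 ratio of the list was -1.09 in males and -1.76 in females, beside -1.69 and -2.07 for Igf2. Igf2 amounted to 13.3, 8.53, 10 and 9.46% of the summed meningeal level in the 4 libraries. Relative to the collagen gene Col1a2, chosen after its values were seen, Igf2 stood at 1.21, 0.861, 1.04 and 0.824. Other markers of the list differ from Col1a2 in this. Gjb2 had log2 ratios of -1.58 in males and -2.05 in females, close to those of Igf2. Ptgds had -0.97 in males and, lower than Igf2, -2.25 in females. The meninges had been removed according to the study's methods. In these bulk samples fewer cells of a type and less RNA per cell cannot be told apart, and the part of the meningeal markers in the lower Igf2, Igf1 and Igfbp5 was not tested.

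Of 12 markers of endothelium and mural cells, limma called 5 (Cdh5, Tek, Slco1c1, Rgs5 and Acta2), all lower. Over all 10629 genes limma called 3.79% lower and 4.49% in either direction, to be set beside each count of calls in this paragraph. The summed level of the endothelial and mural markers was 166.1, 134.5, 189 and 122.8 FPKM, led by Cldn5. The 5 calls became 1 without control female and 0 with single transcripts tested. Called markers are named here after their values were seen. Choroid plexus markers were scarce and lower in sum with BPA, with sums of 2.59, 1.61, 3.62 and 1.32 FPKM over 7 genes, of which none reached the test. Kcnj13 was the most abundant at 1.25, 0.45, 1.67 and 0.46 FPKM, Ttr was listed in females only, and Ttr, Folr1 and Prlr were at 0.01 FPKM in at least 1 library. The blood list gave 0 calls of 3, with Hbb the most abundant, sums of 481.9, 458.9, 458.1 and 369.5 FPKM, and Hemgn at 0.01 FPKM in the male BPA library. It gave 2 calls without BPA male. Microglia and macrophage markers gave 2 calls of 9, Mrc1 and Lyve1, both lower, with sums of 44.53, 38.84, 48.85 and 29.34 FPKM. Aif1 was the most abundant by mean level over the libraries, though not in the female libraries. The 2 calls became 4 without BPA male, 1 without either female library and 0 with single transcripts tested. Calls were also made in the neural lists. Astrocyte and radial glia markers gave 4 lower calls of 8, Slc1a3, Slc1a2, Gfap and Aqp4 (sums 712.3, 601.5, 705.6 and 520.1 FPKM, led by Fabp7). There were 2 calls without control male, 1 without control female, 2 without BPA female and 0 with single transcripts tested. Oligodendrocyte markers had sums of 103, 91.77, 114.5 and 95.44 FPKM, led by Olig1.

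Markers of cortical excitatory neurons were checked against the tissue label, and 8 of 9 were listed (not Emx1), with sums of 661.4, 743.3, 652 and 706.4 FPKM and Neurod6 the most abundant, and the genes that limma called included Neurod2, higher with BPA, and Slc17a7, lower with BPA. Genes of neighbouring regions differed as well. Striatal markers gave 4 higher calls of 8 (Drd2, Ppp1r1b, Rxrg and Penk), beside 74 higher calls among all 10629 genes. Their sums were 82.78, 127.3, 84.86 and 137.5 FPKM, with Ppp1r1b the most abundant. There were 2 striatal calls with single transcripts tested. The olfactory bulb list, led by Cdhr1, summed to 43.73, 11.03, 46.05 and 9.73 FPKM, its 1 tested gene was called lower, and Tbx21 was at 0.01 FPKM in the male BPA library. The part of these cell type and region markers in the values of the IGF genes was not tested.

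The genes whose pattern over the 4 libraries was nearest to that of Igf2 were sought among 10628 genes by the distance of centred log2 values. They were Gjb2 (distance 0.114), Cdhr1 (0.225), Cpa3 (0.234), Frzb (0.235) and Cldn11 (0.261). Gjb2 is also on the meningeal list and Cdhr1 on the olfactory bulb list. Nearest to Igfbp2 were Vwa1 (0.0232), Evc (0.0274), Gfpt2 (0.029), Atg10 (0.035) and Cend1 (0.0368), with log2 ratios of -0.24 to -0.18 in males and -0.44 to -0.42 in females. With 4 libraries many genes share a pattern, and the likeness is a description.

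In the RefSeq gene table of the assembly GRCr8, Igfbp2 and Igfbp5 are neighbours on chromosome 9, yet their log2 ratios were -0.22 and -1.01 in males and -0.46 and -0.89 in females. Igfbp3 lies beside Igfbp1, which was scarce at 0.08 to 0.83 FPKM. Igf2 overlaps the gene LOC102548568 and the microRNA gene Mir483, and Igf1r, Igf2r, Igfbp4 and Igfbp7 also overlap other genes in that table. Whether the libraries kept the strand is not given in the sources used here, so reads of overlapping genes cannot be told apart.

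RefSeq promoter windows, from 250 bases before to 50 after a transcript start in GRCr8, were found for all 10 members, with 2 windows for Igf2 and 11 in all. The GC box GGGCGG, searched on both strands, occurred in 6 of the 11, those of Igf2 (both), Igf1r, Igf2r, Igfbp2 and Igfbp7, and in 33.1% of 33469 promoters. TATAAA occurred in Igfbp4 alone of the members and in 14.2% of all promoters. The single estrogen response motif AGGTCA occurred in 2 of the 11, those of Igf1 and Igfbp6, and in 16.2% of all promoters. The whole palindrome, GGTCA followed after 3 bases by its reverse complement, occurred in 0 of the 11 and in 0.0269% of all promoters, which says only that these letters are not in the windows. The single motif was searched after the palindrome had been seen to be absent. The Igf2 windows had a GC content of 60.7 and 63.3%, against 48.3% in Igf1, 50.7% in Igfbp5 and a median of 51.7% over all promoters. The windows of the 3 members with a log2 ratio of -1 or less in males are shown 5′ to 3′ on the strand of the gene, with GC boxes in capitals. Igf2 has 1 box in each window and Igf1 and Igfbp5 have 0.
Igf2, chr1:207253931-207254230, minus strand: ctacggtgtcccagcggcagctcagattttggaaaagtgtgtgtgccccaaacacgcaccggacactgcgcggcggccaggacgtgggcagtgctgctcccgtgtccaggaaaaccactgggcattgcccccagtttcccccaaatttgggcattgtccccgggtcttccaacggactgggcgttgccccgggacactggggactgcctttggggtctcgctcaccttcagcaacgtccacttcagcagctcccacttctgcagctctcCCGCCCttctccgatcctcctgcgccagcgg
Igf2, chr1:207250426-207250725, minus strand: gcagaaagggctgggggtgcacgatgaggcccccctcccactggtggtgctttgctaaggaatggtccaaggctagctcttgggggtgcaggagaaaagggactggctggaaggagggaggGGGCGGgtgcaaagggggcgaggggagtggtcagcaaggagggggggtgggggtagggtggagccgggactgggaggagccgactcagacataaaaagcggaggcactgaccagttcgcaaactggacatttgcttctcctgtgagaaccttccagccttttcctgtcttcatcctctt
Igf1, chr7:24172282-24172581, plus strand: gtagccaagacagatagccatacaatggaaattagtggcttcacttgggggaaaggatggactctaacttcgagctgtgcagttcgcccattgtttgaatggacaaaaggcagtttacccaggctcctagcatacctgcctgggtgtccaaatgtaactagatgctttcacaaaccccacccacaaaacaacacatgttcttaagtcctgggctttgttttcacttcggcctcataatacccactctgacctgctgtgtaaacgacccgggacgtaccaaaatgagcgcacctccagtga
Igfbp5, chr9:81914138-81914437, minus strand: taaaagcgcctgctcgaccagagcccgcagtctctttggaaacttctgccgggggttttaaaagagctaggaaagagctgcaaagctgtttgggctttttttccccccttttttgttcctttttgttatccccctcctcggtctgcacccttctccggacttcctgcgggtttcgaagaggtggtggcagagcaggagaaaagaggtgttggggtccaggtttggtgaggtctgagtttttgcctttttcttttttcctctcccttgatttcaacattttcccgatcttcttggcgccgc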

How the data were processed

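Per the study's methods, mRNA was selected with oligo(dT) and sequenced on an Illumina HiSeq instrument, and the authors mapped reads to Rnor_6.0 with Bowtie 2 and estimated expression with RSEM. The submitters' processing notes also name HISAT, and versions are not given in the sources used here. The values the authors deposited are FPKM with 2 decimals, and 0.01 is the lowest value.

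The 4 libraries were grouped by sex and treatment from the sample labels. Depth was estimated as the fragment number at which 87.6 to 90.6% of 751 to 795 scarce transcripts per library came within 0.1 of a whole number (20% by chance), with 60 bases taken off each length. Ratios were taken on log2(FPKM + 0.5). An absolute log2 ratio of at least 1 counted as called for 1 library against 1. Poisson intervals for levels and binomial intervals for ratios were exact. limma 3.58.1 (R 4.3.3), with a trend and Benjamini-Hochberg adjustment, was run on 10629 genes that all libraries listed and whose mean FPKM reached 1, with treatment as the only term (2 residual degrees of freedom) or with treatment and sex. The p-values measure the spread between these libraries, and the libraries of a treatment may hold pups of the same litters. On simulated data of the treatment comparison with 10629 genes, limma called 100 of 100 genes changed 2-fold, 100 of 100 changed 4-fold and 4 unchanged genes. The simulation gave every gene the same spread and held no counting error, sex effect or litter effect. It therefore does not show how many changes are found or falsely called in these libraries. In the data Foxd1, with a mean log2 ratio of -1.12 (SE 0.299), was not called.

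Other computations used Python 3.11.15, numpy 2.4.6, pandas 2.3.3, scipy 1.17.1 and matplotlib 3.10.9. The members and lists were chosen with earlier results of these data known. Genes named by rule were all members and pathway genes called by limma or past an absolute log2 ratio of 1. The rule also took the most abundant gene of each list by mean level, markers at 0.01 FPKM, and the 5 genes nearest to Igf2 and to Igfbp2. Others were named after their values were seen, among them Irs1, Grb10, Akt2, Col1a2 and the markers given as called or not called. Neighbouring and overlapping genes were named from the genome annotation. List genes with no value under their symbol included Pappa2, Igf2bp3, Irs4, Rictor, Braf, Meg3, Hba-a2, Emx1 and Eomes. Some values of single genes in the cortical neuron, oligodendrocyte and pathway lists are not reported here. Alternatives were other pseudocounts, median-ratio scaling, other filters, single transcripts, another sex term and leaving out each library.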

Additional observations from a re-analysis of the deposited data

Results flagged for a closer look

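For 2 of the 10 members the log2 ratio of BPA to control had opposite signs in the sexes, beside 31.4% of 13029 genes. The log2 ratio in males minus that in females was 0.61 for Igfbp7, which was 0.24 in males and -0.36 in females, and 0.14 for Igfbp3, which was 0.08 and -0.07. For Igfbp3 the counting interval of the difference, -0.21 to 0.53, held 0, whereas that of Igfbp7, 0.26 to 0.99, did not. These differences were not tested, since each group had 1 library.

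Of the 59 listed genes of the pathway lists, 21 (35.6%) had log2 ratios of opposite sign in the sexes, beside 31.4% of 13029 genes. For 6 of the 56 with a fragment in every library (10.7%) the signs were opposite and the counting interval of the difference did not hold 0, beside 9.66% of 12213 genes. Both shares were near those over all genes, so that they are no result about the pathway. The 6 included Stc2, Irs1, Grb10 and Akt2, of which all but Stc2 were named after their values were seen. The difference was 2.05 for Stc2, a secreted inhibitor of the protease encoded by Pappa, with 0.13 FPKM in the control and 0.77 FPKM in the BPA library of males, and 0.79 and 0.13 FPKM in those of females. Stc2 rested on 1, 6, 6 and 1 estimated fragments in these libraries. It was too scarce for a statement on its direction in either sex. The difference was 0.64 for Grb10 (log2 ratios of 0.13 in males and -0.52 in females), 0.31 for Irs1 and 0.23 for Akt2. For the most abundant genes of 4 lists it was 0.1 (Ctsd), -0.17 (Insr), 0.13 (Igf2bp2) and -0.18 (M6pr), and their counting intervals held 0, so that no opposite direction was shown. The difference between the sexes was not tested for any of these genes.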

How the results depend on the processing

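Under other pseudocounts and median-ratio scaling, all 60 member ratios stayed within the counting interval of the reported value and no called ratio reversed. The other alternatives for single libraries (assembled transcripts added, the most abundant transcript alone, a minimum mean FPKM of 1) could not change a member and say nothing on stability. The count of members at a log2 ratio of -1 or less went from 3 to 1 in males with a pseudocount of 1 and from 1 to 2 in females with a pseudocount of 0.1, because Igf1, Igfbp5 and Igfbp6 lay near the threshold or were scarce. No assembled transcript was annotated to a member. Members of opposite direction in the sexes numbered 2 under each pseudocount.

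The limma count of 5 pathway genes was 0 with no filter on low values (2417 genes at an unadjusted p under 0.05), 1 with single transcripts tested and 8 with the sex term added (Grb14, Mapk3 and Mest beside the 5), and 2 to 3 when each library was left out, where the lone library of a treatment is assumed to vary like the others. The cause was not tested. Over all genes the count of 477 was 0 with no filter, 74 with single transcripts, 875 with the sex term and 227 to 465 with a library left out. Median-ratio scaling gave 128 higher and 314 lower calls in place of 74 and 403. For the sexes limma called 0 of 10 members under all 6 alternatives (0 to 2 at an unadjusted p under 0.05), while the count over all genes went from 11 to 27 with scaling and to 2 with no filter, with single transcripts or without the treatment term. Leaving out a library was not run for the sexes, since no residual degree of freedom would remain. At this depth Igfbp6 and Stc2, with 10 fragments or fewer in each library, allow no statement on direction.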
